A study of Rattus norvegicus with 30 samples.

Results

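Tissue that grew inside a tube of chitosan, a sugar polymer obtained from chitin, was compared 21 days after delayed and after immediate repair of the median nerve, which runs through the forelimb of the rat. The comparison used 8 of the 30 RNA sequencing samples of the series, chosen by their labels: 3 of delayed repair and 5 of immediate repair, all collected at day 21. All came from adult female rats with the genotype given as WT, whose median nerve had been cut to leave an 8 mm gap. A chitosan tube of 10 mm spanned the gap. In delayed repair the tube was placed 3 months after the injury, and in immediate repair it was placed at the time of injury. The samples of both repairs at days 7 and 14, and 5 samples of healthy, untreated median nerve (control nerve), gave further levels to set the day 21 values against. The comparison asks whether regenerating tissue differs after a wait. Delayed tissue was collected at a later time since injury as well, and the wait cannot be told apart from that longer time.

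After a nerve is cut, the axons beyond the cut degenerate, and Schwann cells, the glia of peripheral nerve, lose their myelin programme and take up a repair state. Macrophages clear debris, while fibroblasts and vessel cells build the bridge along which Schwann cells and axons advance. Nerve stumps left without axons for long are known to support regrowth less well, and this is why delayed repair is studied. The deposited table gives Ensembl gene IDs without symbols, and no annotation used here pairs them. No gene could therefore be assigned a name, role or sequence, and the tissue could not be checked against markers of its cell types. Genes are described below by ID for 4 of them, and otherwise in groups set by their level or by their course at earlier days.

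Total counts were 13419386 to 15808526 in the 3 delayed libraries and 12084994 to 16909602 in the 5 immediate libraries. Whether each replicate is a separate animal is not given in the labels, and p-values measure the spread between samples. In the main edgeR fit that spread was estimated for each gene over all 30 libraries of the 7 groups. The labels name no batch. Log2 CPM values of pairs of delayed libraries correlated across genes at 0.955 to 0.968, and of pairs made of a delayed and an immediate library at 0.915 to 0.976. Immediate replicate 4 stood apart: its correlations with the other 7 libraries were 0.896 to 0.943, with a median of 0.916, against 0.930 to 0.976 and a median of 0.958 for pairs without it. On the leading principal component of the 8 libraries, which held 38.5% of the variance, it lay at 105.6 and the other libraries at -49.1 to 42.1. The next component held 17.0% and placed the delayed libraries at 47.7, 18.4 and 32.8 and the immediate libraries at -34.9, 19.9, -39.5, -18.8 and -25.5. Results that rest on immediate replicate 4 are given with and without it.

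**Figure D1:**
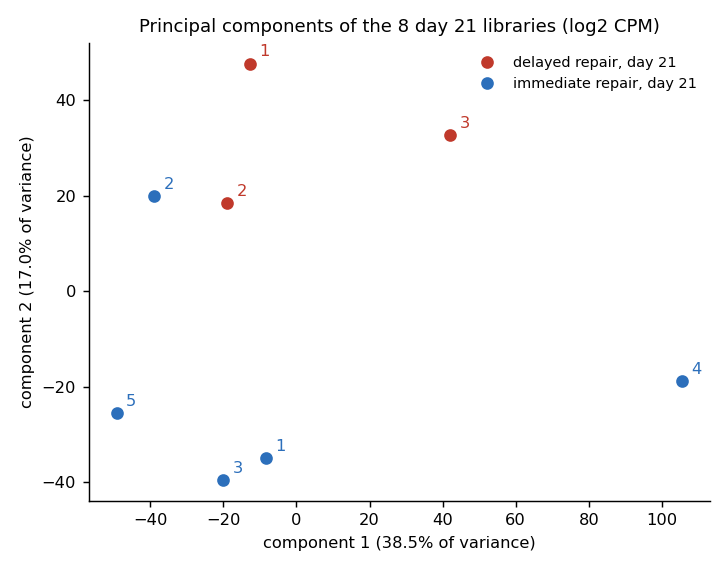
Principal components of log2 CPM over the tested genes in the 8 day 21 libraries. Each number is a library, coloured by repair, and the axes give the library's score on components 1 (38.5% of the variance) and 2 (17.0%). Immediate replicate 4 lies alone at the right, at 105.6, and delayed libraries lie at 18.4 to 47.7 on component 2, where 1 immediate library reaches 19.9.

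Few genes separated the repairs at day 21. Of 16015 genes with enough counts to be tested, 8 were higher after delayed repair (0.05% of genes tested) and 0 were lower, by the edgeR quasi-likelihood test with a Benjamini-Hochberg adjusted p under 0.05. On the same genes DESeq2 called 42 higher and 15 lower, and limma voom, with quality weights for samples, called 51 higher and 7 lower. None of the 8 was called by edgeR without the filter on low counts (0 calls, 1169 genes at an unadjusted p under 0.05) or with only the 8 libraries fitted (1 call, a lower gene). The edgeR count rested on single libraries: it was 0 when delayed replicate 1 or immediate replicate 1, 3 or 5 was left out, 1 when delayed replicate 2 was, and 3 when immediate replicate 2 was. That 1 gene was not among the 8, and 2 of the 3 were. An unadjusted p under 0.05 was reached by 911 genes (5.69%), of which 479 were higher (2.99%) and 432 lower (2.7%). The libraries of the repairs did not overlap in 674 genes (4.21%), with 351 higher (2.19%) and 323 lower (2.02%) after delayed repair. In bulk tissue, more cells of a type and more RNA per cell cannot be told apart. The libraries were non-directional per the labels, so reads of a gene and of an overlapping gene on the other strand cannot be told apart either.

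The called gene with the largest change, ENSRNOG00000008015, measured 809.7, 1585 and 279 CPM (a gene's share of its library's counts, scaled to a common depth) in the 3 delayed libraries, against 23.5, 32.6, 48.1, 49.7 and 50.4 CPM in the 5 immediate libraries. Even the lowest delayed library was 5.54 times the highest immediate library, while the delayed libraries themselves spanned a wide range. The means were 891 ± 656 CPM after delayed repair (SD, n = 3) and 40.9 ± 12.1 CPM after immediate repair (SD, n = 5). The log2 fold change was 4.45 (SE 0.82, 95% interval 2.76 to 6.14, edgeR quasi-likelihood test with Benjamini-Hochberg adjusted p = 0.0364). With each of the 8 libraries left out in turn it was 3.74 to 4.87, and it passed in 1 of these 8 fits (edgeR adjusted p = 0.0137 to 0.278), the one without delayed replicate 3. On day 7 the same gene had averaged 152.5 ± 197 CPM after delayed repair (n = 5) and 96.8 ± 69.6 CPM after immediate repair (n = 4). Delayed day 7 replicate 1 held 501 CPM, above delayed day 21 replicate 3. The other delayed day 7 libraries held 35.9 to 95.3 CPM. On day 14 the gene's mean was 105 ± 35.0 CPM in delayed tissue and 42.1 ± 27.2 CPM in immediate tissue (n = 4 each). Control nerve was itself spread, at 136 ± 120 CPM (19.2 to 321, n = 5). Delayed tissue at day 21 was higher than control nerve, with a log2 fold change of 2.71 (adjusted p = 0.00632 by edgeR's quasi-likelihood test with Benjamini-Hochberg), and immediate tissue was lower, with -1.74 (adjusted p = 0.0438, same test). The gene was chosen by these same day 21 values, so both comparisons are a description. All immediate libraries lay inside the control range, and delayed replicate 3 lay below the highest control library.

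The next largest change among the called genes was that of ENSRNOG00000043465, with 86.2, 97.1 and 12.7 CPM in the delayed libraries, against 1.42, 8.54, 2.66, 1.52 and 2.62 CPM in the immediate libraries. Delayed replicates 1 and 2 were far above every immediate library, and replicate 3 was above the highest of them by a narrower margin. The means were 65.3 ± 45.9 CPM (SD, n = 3) after delayed repair and 3.35 ± 2.96 CPM (SD, n = 5) after immediate repair. Its log2 fold change was 4.27 (SE 0.77, 95% interval 2.69 to 5.86, edgeR quasi-likelihood test with Benjamini-Hochberg adjusted p = 0.0364). Leaving out single libraries gave 3.87 to 4.98, and the gene passed in 2 of the 8 fits, without delayed replicate 3 or immediate replicate 2 (edgeR adjusted p = 0.0137 to 0.234). Control nerve held 6.26 ± 1.66 CPM (n = 5). Delayed tissue at day 21 was higher than that (log2 fold change 3.38, edgeR adjusted p = 0.000642), while immediate tissue had a log2 fold change of -0.89 that did not pass (edgeR adjusted p = 0.284). This gene too was chosen by its day 21 values, so these comparisons are a description. Its mean on day 7 was 2.57 ± 1.52 CPM in delayed tissue (n = 5) and 0.89 ± 0.99 CPM in immediate tissue (n = 4). On day 14 it was 7.06 ± 3.40 CPM in delayed tissue and 5.01 ± 4.74 CPM in immediate tissue (n = 4 each).

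**Figure D2:**
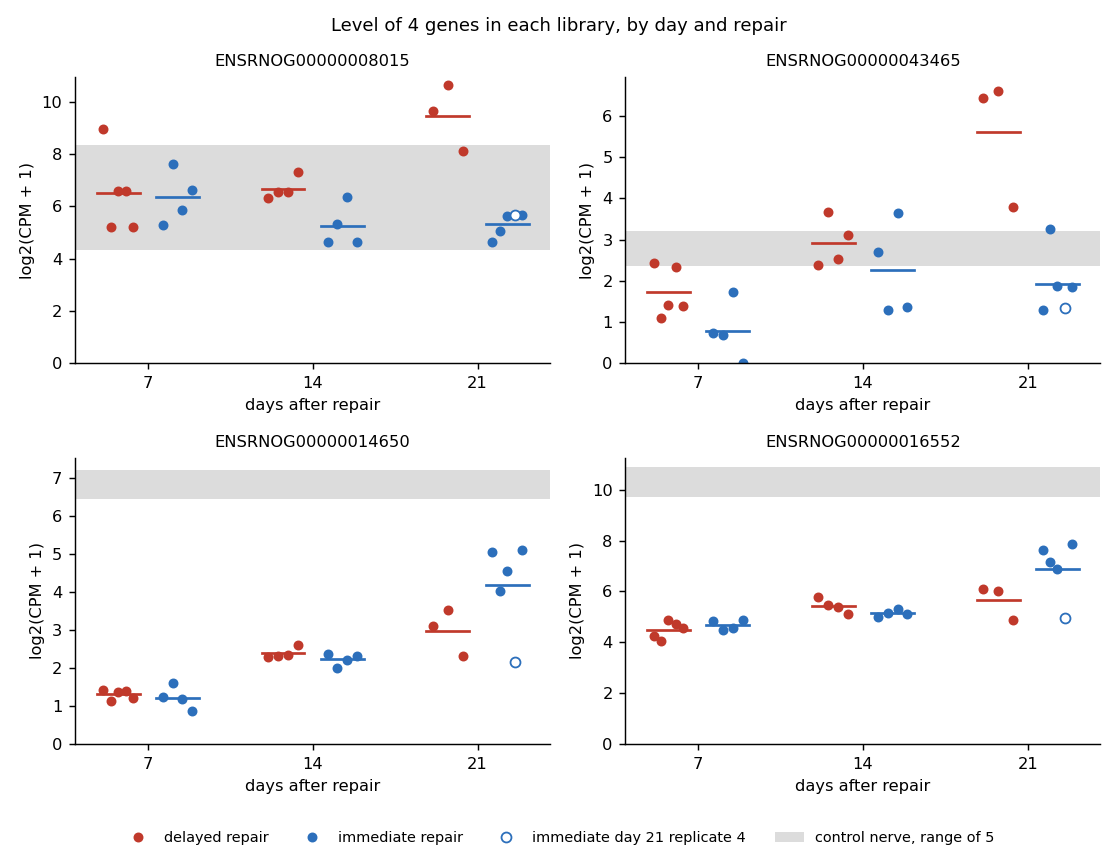
Levels of 4 genes as log2(CPM + 1) in each library of delayed and immediate repair at days 7, 14 and 21. Each point is a library, lines are group means, the grey band is the range of the 5 control nerves and the open circle is immediate day 21 replicate 4. The upper genes have their highest group mean in delayed tissue at day 21, though single libraries of other groups overlap it. The lower genes stay below the control band in both repairs, with the open circle lying among or below the delayed libraries.

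The other 6 called genes had log2 fold changes of 0.75 to 3.24, with adjusted p = 0.0364 to 0.0404 in the edgeR test. Of all 8, 5 were at least 4-fold higher after delayed repair, 2 were 2-fold to 4-fold higher and 1 was under 2-fold higher. The gene with the smallest change had the lowest ratio of highest to lowest library within either repair, at 99.0, 76.0 and 94.3 CPM in the delayed libraries and 58.1, 54.2, 59.8, 47.4 and 47.2 CPM in the immediate libraries. Its means were 89.8 ± 12.2 CPM (SD, n = 3) after delayed repair and 53.3 ± 5.89 CPM (SD, n = 5) after immediate repair. With each of the 8 libraries left out in turn, it passed in 0 of the 8 fits (edgeR adjusted p = 0.0618 to 0.193). The 8 genes ran from 4.82 to 891 CPM on average in delayed tissue and from 0.50 to 53.3 CPM in immediate tissue.

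The size of the rise differed among the delayed libraries. Delayed replicate 2 was the highest of the 3 in 7 of the 8 genes and replicate 1 in the other, while replicate 3 was the lowest in 4, replicate 1 in 3 and replicate 2 in 1. The highest delayed library was 1.30 to 7.62 times the lowest, with a median of 4.60. In the immediate libraries the same ratio was 1.27 to 6.00, with a median of 2.01. The lowest delayed library was 1.02 to 5.54 times the highest immediate library, with a median of 1.90. In 1 gene the gap between the groups was therefore near 0.

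**Figure D3:**
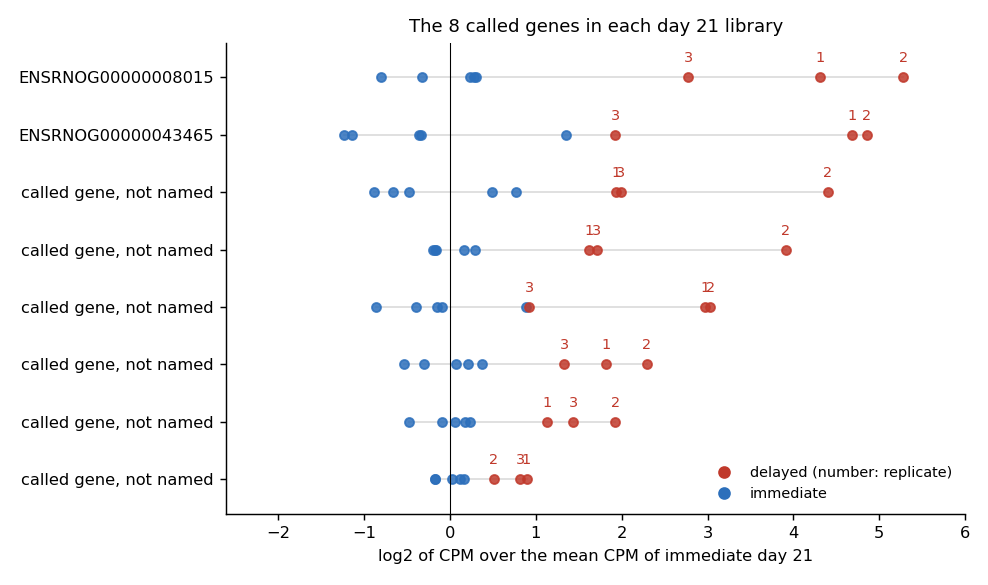
The 8 genes called higher after delayed repair, each on a line, with every day 21 library placed by the log2 of its CPM over the mean CPM of the immediate libraries. Red points are delayed libraries with their replicate number above and blue points are immediate libraries. Delayed replicate 2 lies farthest right in 7 of the 8 genes.

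The 8 genes, chosen at day 21, were also read at the earlier days. The median log2 fold change of the 8, delayed over immediate, was 0.01 on day 7, 0.44 on day 14 and 2.71 on day 21. At day 7, 4 of the 8 lay above 0, and at day 14, 7 did. At day 7 delayed libraries lay wholly above immediate ones in 0 of the 8 genes, against 0.262% of all tested genes. At day 14 they did so in 1 of the 8, against 1.02% of all tested genes. None of the 8 passed the edgeR test on either day, and only 1 had an unadjusted p under 0.05, on day 7, where it was lower after delayed repair (log2 fold change -0.28). On day 14 the test called 0 of all tested genes (0%), with 244 at an unadjusted p under 0.05 (1.52%). The change of the repair effect between days was tested directly as an interaction, day 21 minus day 14. It was 3.13 (SE 1.10, log2) for ENSRNOG00000008015 and 3.78 (SE 1.05) for ENSRNOG00000043465. Adjusted over all tested genes by Benjamini-Hochberg, the edgeR p was 1.00 in each. Over all genes 0 were called (0%), with 385 at an unadjusted p under 0.05 (2.4%), 4 called by DESeq2 and 0 by voom. The day 21 difference by which the 8 were chosen enters the interaction, so its values in these genes are a description.

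The 8 genes were then set beside control nerve. Their choice favours a high delayed and a low immediate level at day 21, so the counts that follow are a description. Against control nerve, 6 of the 8 were called higher in delayed tissue at day 21 (23.1% of all tested genes were called higher, and 44.3% called in either direction). In immediate tissue of the same day 2 were called higher (24.8%) and 3 lower (22.8%), with 47.7% of all tested genes called in either direction. Both comparisons use the same 5 control libraries.

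The edgeR fit with all libraries called no gene lower, and the same fit without immediate replicate 4 called 4 lower. With all libraries, DESeq2 passed 1 of these 4 (adjusted p = 0.0487) and voom passed another (adjusted p = 0.0308). That fit was added with the values known. It called 7 genes of 15956 tested (0.0439%), 3 higher and 4 lower, and 2 of the 3 were among the 8. An unadjusted p under 0.05 was reached by 1159 genes (7.26%), with 613 higher and 546 lower, and 723 of them were among the 911 found with all libraries. The repairs did not overlap in 1655 genes (10.4%). With a library fewer, non-overlap arises more easily, so this share cannot be compared directly with the 4.21% found with all libraries. The 8 genes had log2 fold changes of 0.71 to 4.53 in this fit, with edgeR adjusted p = 0.0365 to 0.0716. The 4 lower genes had log2 fold changes of -1.81 to -0.76 without replicate 4, and of -1.53 to -0.62 with it (edgeR adjusted p = 0.252 to 0.331).

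The 2 largest of these falls were picked out after their values were seen. ENSRNOG00000014650 measured 7.63, 10.6 and 3.97 CPM in the delayed libraries, against 32.3, 15.2, 22.7, 3.47 and 33.7 CPM in the immediate libraries, where the 3.47 is replicate 4. All immediate libraries but replicate 4 lay above all delayed libraries, and replicate 4 lay below them. Its log2 fold change was -1.81 without replicate 4 (SE 0.29, edgeR quasi-likelihood test with Benjamini-Hochberg adjusted p = 0.0226) and -1.53 with it (SE 0.43, adjusted p = 0.324, same test). Control nerve held 111 ± 23.6 CPM (SD, n = 5), and on day 7 the gene was lowest, at 1.49 ± 0.22 CPM in delayed tissue (n = 5) and 1.37 ± 0.51 CPM in immediate tissue (n = 4). By day 14 it stood at 4.24 ± 0.57 CPM in delayed tissue and 3.70 ± 0.51 CPM in immediate tissue (n = 4 each). With all libraries, its log2 fold change against control nerve at day 21 was -3.91 after delayed repair and -2.38 after immediate repair.

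ENSRNOG00000016552 followed the same course. It measured 67.4, 63.0 and 28.6 CPM in the delayed libraries, against 196, 140.6, 116, 30.2 and 233 CPM in the immediate libraries, with the 30.2 in replicate 4. Replicate 4 fell within the delayed range and the other immediate libraries lay above it. The log2 fold change was -1.69 without replicate 4 (SE 0.30, edgeR quasi-likelihood test with Benjamini-Hochberg adjusted p = 0.0300) and -1.43 with it (SE 0.40, adjusted p = 0.331, same test). On day 7 it averaged 22.1 ± 5.14 CPM in delayed tissue (n = 5) and 24.9 ± 3.40 CPM in immediate tissue (n = 4). On day 14 it averaged 42.7 ± 8.30 CPM in delayed tissue and 34.3 ± 3.31 CPM in immediate tissue (n = 4 each), and control nerve held 1170 ± 427 CPM (n = 5). A low value in immediate replicate 4 is built into the choice of these genes.

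Large point estimates were more often negative than positive, and none of the negative ones was called by the edgeR fit with all libraries. By the fitted log2 fold change, 96 genes were at least 4-fold higher and 251 at least 4-fold lower after delayed repair. The repairs did not overlap in 45 of the 96 and in 26 of the 251. Of all tested genes, 2.19% lay wholly higher and 2.02% wholly lower after delayed repair. Both sets were chosen by fold change in these same libraries, so more non-overlap than that is built into the choice. Delayed replicate 2 was the highest delayed library in 67 of the 96. Among the 251, immediate replicate 4 was the highest immediate library in 109, replicate 5 in 46, replicate 1 in 43, replicate 3 in 36 and replicate 2 in 17. The 251 genes were chosen as lower in delayed tissue, so a smaller share of counts there is built into the choice. The 251 genes held 0.0277% to 0.0519% of the counts of the delayed libraries. They held 2.36% of the counts of immediate replicate 4, 1.26% of replicate 1, 0.130% to 0.213% of the other 3 immediate libraries and 0.506% to 0.729% of the control libraries. The median level of the 251 in immediate replicate 4 was 0.731 CPM, so its share does not describe the typical gene of the set. Without replicate 4, 117 genes were at least 4-fold higher and 211 at least 4-fold lower, and 162 of these were among the 251.

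**Figure D4:**
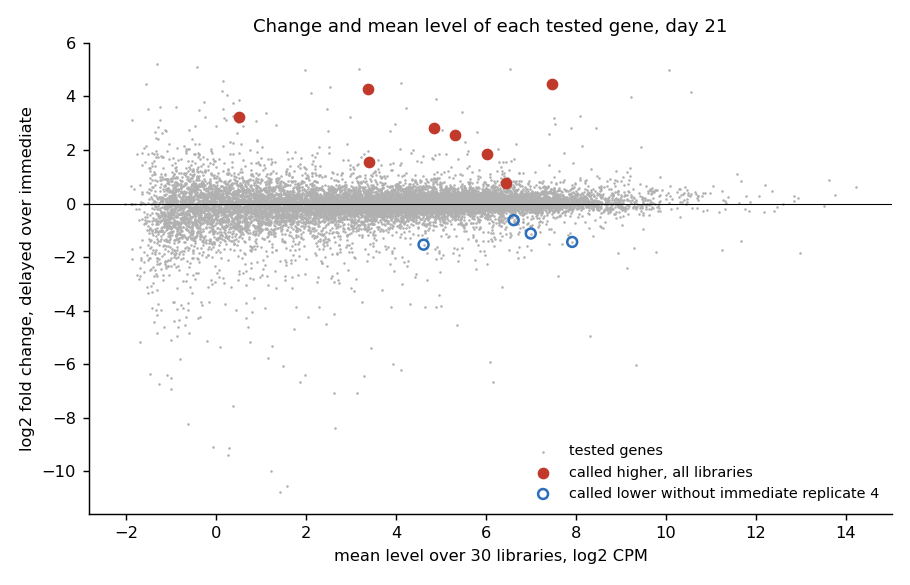
Log2 fold change of delayed over immediate repair at day 21 against mean level over the 30 libraries (log2 CPM), for each of the 16015 tested genes. Filled red circles are the 8 genes called higher and open blue circles the 4 called lower in the fit without immediate replicate 4. Most genes lie near 0, and large negative estimates, none of them called by the edgeR fit with all libraries, are spread over low and middle levels.

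How far the data could show a difference depended on level. The distance from the estimate to either end of the 95% interval of the log2 fold change was 0.63 in the median gene. In 54.8% of genes the interval stayed inside a 2-fold change either way, and in 81.4% inside a 4-fold change. The median absolute log2 fold change was 0.20. Genes were divided by mean level into 4 bins of 4003 or 4004 genes each. From the lowest bin to the highest, the median width to either side was 1.47, 0.64, 0.41 and 0.39, and 9.03%, 55.6%, 77.2% and 77.1% of genes had their interval inside 2-fold. In the lowest bin 80 genes were higher and 162 lower at an unadjusted p under 0.05, and in the next bin 74 were higher and 118 lower. In the third bin 117 were higher and 101 lower, and in the highest 208 were higher and 51 lower. Over all tested genes 479 were higher (2.99%) and 432 lower (2.7%). Without delayed replicate 3 the bins held, from low to high, 76, 66, 92 and 125 higher genes and 106, 107, 101 and 45 lower genes. All tested genes then gave 359 higher and 359 lower. Without immediate replicate 4 the bins held 90, 102, 163 and 258 higher genes and 152, 153, 137 and 104 lower genes, with 613 higher and 546 lower over all. The bins held 1, 2, 2 and 3 of the 8 called genes, from low to high.

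Genes were next grouped by their course in libraries outside the comparison, and their day 21 difference between the repairs was read. A group held genes that changed at least 2-fold, with an edgeR adjusted p under 0.05, in both repairs. These groups were set up with the day 21 results known, and some share genes: 1255 genes were lower at day 7 than in control nerve and higher at day 14 than at day 7, and 554 were higher at day 7 and lower at day 14. The 3431 genes lower at day 7 than in control nerve had a median day 21 log2 fold change of -0.18, against -0.02 over all tested genes. Of them, 157 were lower (4.58%) and 39 higher (1.14%) at an unadjusted p under 0.05, against 2.7% lower and 2.99% higher of all tested genes, and 68.4% lay below 0. The 2842 genes higher at day 7 than in control nerve had a median of 0.14, with 179 higher (6.30%) and 19 lower (0.669%). The 1730 genes higher at day 14 than at day 7 had a median of -0.11, with 7 higher (0.405%) and 32 lower (1.85%), both shares below those of all tested genes. The 661 genes lower at day 14 than at day 7 had a median of 0.18, with 23 higher (3.48%) and 5 lower (0.756%). In the 4700 genes not called at day 7 against control nerve the median was -0.01, with 125 higher (2.66%) and 134 lower (2.85%).

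Read by library, these groups did not separate the repairs. For genes lower at day 7 than in control nerve, the median deviation from the mean of the repairs was 0.005, 0.15 and -0.31 (log2 CPM) in the delayed libraries, and 0.10, 0.20, 0.11, -0.37 and 0.39 in the immediate libraries. For genes higher at day 7, it was -0.007, -0.055 and 0.30 in the delayed libraries, and -0.03, -0.29, -0.14, 0.33 and -0.35 in the immediate libraries. Delayed replicate 3 and immediate replicate 4 stood at the same end in both groups, and the ranges of the repairs overlapped. Without delayed replicate 3 the medians of the 4 groups, in the order given, were -0.06, -0.02, 0.02 and -0.12, so the sign turned in 3 of 4. The splits at an unadjusted p under 0.05 were then 49 higher and 74 lower, 92 and 28, 10 and 18, and 12 and 9. The groups held 3431, 2842, 1730 and 661 genes, and over all 16015 tested genes the same fit gave 359 higher and 359 lower. Without immediate replicate 4 the medians were -0.26, 0.30, -0.18 and 0.34, and the splits 37 higher and 306 lower, 291 and 10, 8 and 73, and 53 and 4. In the genes not called at day 7 that split was 131 higher and 107 lower, and over all 15956 genes tested it was 613 and 546. At day 14 the same 4 groups had median log2 fold changes between the repairs of 0.03, -0.02, 0.08 and -0.07.

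**Figure D5:**
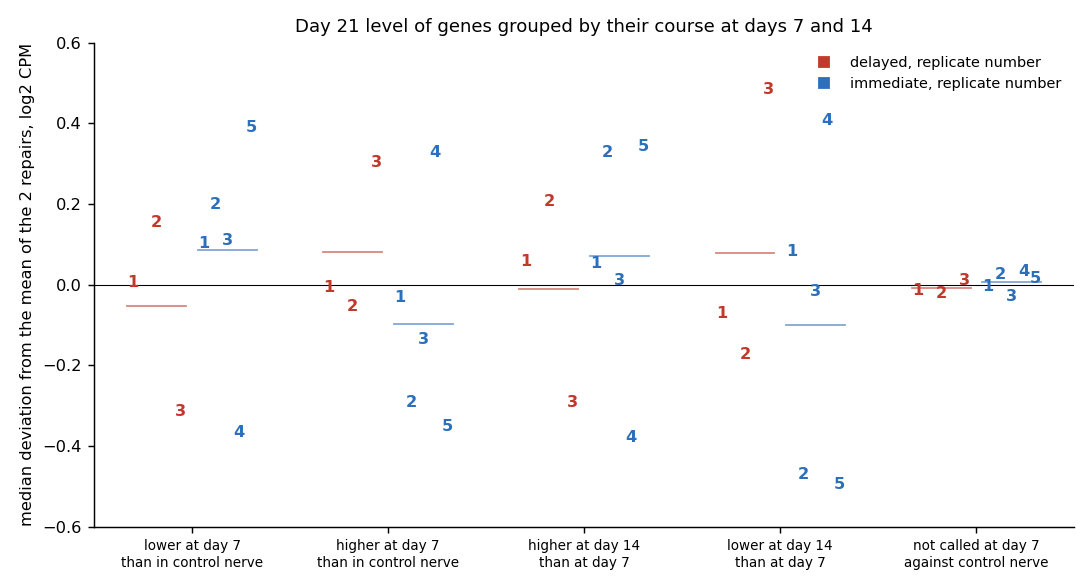
Median deviation of each gene group from the mean of the 2 repairs, in log2 CPM, for each of the 8 day 21 libraries. Numbers are replicates of delayed (red) or immediate (blue) repair and lines are group means. Delayed replicate 3 and immediate replicate 4 lie at the same end in all 4 groups that changed earlier, and the repairs overlap in each.

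Signs of the day 21 differences were shared in part with day 14. In the median gene the day 21 interval reached 0.63 to either side, against a median absolute log2 fold change of 0.20. Weak agreement therefore cannot show that the days differ, and the edgeR interaction test of day 21 with day 14 called 0 genes. Of the 479 genes higher at an unadjusted p under 0.05 at day 21, 64.5% had a log2 fold change above 0 at day 14, against 48.7% of all tested genes. Of the 432 lower genes, 65.0% lay below 0 at day 14, against 51.0%. At day 7 the figures were 44.9% of the higher genes above 0, against 56.9% of all genes, and 43.5% of the lower genes below 0, against 42.5%. Across all 16015 genes, which are not independent replicates, the log2 fold change of delayed over immediate repair at day 21 correlated with that at day 14 at a Pearson r of 0.20 (Spearman rho 0.18) and with that at day 7 at -0.07 (rho -0.09).

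The number of genes with counts was lower after delayed repair by a difference that did not pass the test. With each library drawn down to 11958242 counts, 17892 ± 129 genes had a count after delayed repair (SD, n = 3) and 18174 ± 198 after immediate repair (SD, n = 5), a difference of -282 (two-sided exact permutation test, p = 0.0893, where the smallest p of the 56 arrangements is 0.0179). Leaving out single libraries gave an exact permutation p of 0.0286 to 0.286. Only 1 of these was under 0.05, at a difference of -352, without immediate replicate 3, the lowest of the immediate libraries. With at least 5 counts required the difference was -222 (exact permutation p = 0.107). At full depth it was -244 (exact permutation p = 0.25). In 13 genes all 3 delayed libraries had counts and no immediate library did, with at most 11 counts in all. In 12 genes all 5 immediate libraries had counts and no delayed library did, with at most 48 counts in all. Of each, 1 gene passed the filter on low counts.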

How the data were processed

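The authors deposited raw read counts per gene in 1 table of the series, whole numbers with no normalization. Per the labels' protocols, RNA was isolated with TRIzol, had an integrity number above 6, and 400 ng of total RNA went through poly-T capture into non-directional libraries. Tools named in the submitters' processing notes, without a role, were DESeq2 1.38.3, featureCounts 1.5.0-p3 and HISAT2 2.0.5. The genome build and annotation were not given in the sources used here, nor was how reads shared by near-identical genes were counted, so such genes are uncertain. None of the IDs could be matched to a symbol (0 of 32545; 8248 had 0 counts in every library).

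The tests ran in edgeR 4.0.16 under R 4.3.3, with filterByExpr given the 7 groups and a minimum count of 10, TMM factors, and a robust quasi-likelihood fit of all 30 libraries, with Benjamini-Hochberg adjustment over 16015 genes and a threshold of 0.05. Groups that share 1 estimate of spread are tested against too small a spread where they are more dispersed than the rest, and too large where less. Standard errors and intervals came from the test statistic. CPM used TMM-scaled library sizes. Correlations and components used log2 CPM with a prior count of 2. No pair of day 21 replicates agreed within sampling noise (lowest chi-square per degree of freedom 37.1). The test was tested on simulated data with known changes, drawn with the same spread of a gene in every group. That cannot show how the test behaves where the spread differs between groups or a library stands apart. Named genes were the 2 called genes with the largest rise and the 2 with the largest fall, and since the edgeR fit with all libraries called no fall, the last 2 came from the fit without immediate replicate 4. Lists of pathway genes by symbol were not applied. The comparison, gene groups and tests were chosen with earlier results of these data known. Alternatives were DESeq2 1.42.0, limma 3.58.1 voom, relative log expression factors, no filter, only the groups compared, a replicate block, and leaving out each library.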

Additional observations from a re-analysis of the deposited data

Results flagged for a closer look

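ENSRNOG00000043465 measured 8.54 CPM in immediate day 21 replicate 2, far above the next immediate library at 2.66 CPM. The mean correlation of immediate day 21 replicate 4 with the other immediate libraries was 0.908, against 0.947 or more for the others. Of 10 values screened for a library far from its group, all in the immediate day 21 libraries, these 2 stood out. The 3 delayed libraries were too few to be screened. For independent values chance gives about 1 in 20 groups, but the mean correlations share libraries, so that rate does not hold for them. The part of either flagged value in the results above was not tested beyond the fits that leave its library out.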

How the results depend on the processing

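The 8 calls were 57 with DESeq2 and 58 with voom, which shared 26, all higher and including the 8. With relative log expression factors there were again 8. The count was 0 without the filter (1169 at an unadjusted p under 0.05, edgeR adjusted p of the 8 at 0.0741 to 0.0830) and 1, a fall not among the 8, with only the groups compared fitted. Leaving out each of the 8 libraries gave 0 to 9 calls: 0 without delayed replicate 1 or immediate replicate 1, 3 or 5, 1 without delayed replicate 2, 3 without immediate replicate 2, 7 without immediate replicate 4 and 9 without delayed replicate 3. Calls among the 8 genes numbered 0 without delayed replicate 2 and 2 without immediate replicate 2. They numbered 2 without immediate replicate 4 and 6 without delayed replicate 3. Leaving out each of the other 22 libraries gave 0 to 19, median 7.5: 0 without immediate day 14 replicate 2, 0 without delayed day 14 replicate 4 and 0 without control replicate 4, 1 without control replicate 2, 3 without control replicate 1, 13 without delayed day 7 replicate 1 and 19 without immediate day 7 replicate 4. The cause of these shifts was not tested. The log2 fold changes of the 8 stayed above 0 throughout these 8 fits, at 3.74 to 4.87 for ENSRNOG00000008015 (called in 1 of 8) and 3.87 to 4.98 for ENSRNOG00000043465 (called in 2 of 8). No sign of a single gene's change turned in 168 values compared, which covered the 8 and the 4 called lower without immediate replicate 4. These genes were chosen for their difference in these libraries, so stable signs are largely built into the choice. In 84 of the 168 values, whether the gene passed was also the same as in the main fit. The interaction of day 21 with day 14 gave 4 calls with DESeq2. Counts against control nerve stayed within 1.5 times. The difference in genes with counts was -352 to -210.4 with a library left out. Its exact permutation p was then 0.0286 to 0.286, under 0.05 only without immediate replicate 3. Replicate numbers did not pair the samples (correlations of same-numbered deviations -0.07, -0.02 and -0.05), and the replicate block gave 0 calls (828 at an unadjusted p under 0.05). Intervals were widest at low counts.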
